A study of Rattus norvegicus with 3 samples.

Results

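The cadherin and catenin genes of the adherens junction, Cdh1, Cdh3, Ctnna1, Ctnnb1 and Ctnnd1, were followed across the 3 arrays of a study of opioid peptides in rat keratinocytes. These 5 genes were chosen by symbol, out of 15037 named genes, and each was represented by 1 probe set. The cells were FRSK, a keratinocyte line from fetal rat skin. The untreated control, the Met-enkephalin (Met-ENK) group and the β-END(1-9) group each consisted of 1 culture and 1 whole-transcript array. Met-ENK is a short opioid peptide, and β-END(1-9) is the opening fragment of β-endorphin. Each peptide was present at 100 nM for 24 h, the labels name no other agent or genetic change, and no source used here says whether the control received vehicle.

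Adherens junctions join neighbouring epithelial cells. A cadherin in the membrane of one cell binds a cadherin of the next cell, and inside the cell its tail is held by catenins that connect it to actin. In epidermis, E-cadherin (Cdh1) is present through the living layers and P-cadherin (Cdh3) mainly in the basal layer. β-catenin (Ctnnb1) bridges the cadherin tail to α-catenin (Ctnna1), which binds actin filaments, and p120-catenin (Ctnnd1) binds a separate part of the tail and slows the removal of cadherin from the surface. β-catenin also carries Wnt signals to the nucleus, a role set by the amount and place of its protein, which an RNA array does not measure.

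The single array per group limits the precision of every value: no spread between cultures is known, no test between groups was possible, and no p-value is given. Bulk RNA cannot tell a different makeup of the culture from a different amount of RNA per cell. A gene entered the counts when its mean log2 signal over the 3 arrays was at least 6.41, the median of the named genes, and 7519 genes did. A difference was counted from 1.5-fold upward, a log2 difference of 0.58. The array carries 23 background probe sets, whose signals ranged from 2.51 to 7.57 on every array. The array medians over 23188 transcript clusters ran from 5.93 to 5.97. All 9 measured keratinocyte markers lay above the background range on every array, among them Krt14, a basal keratin, at 16.70 on the control array.

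All 5 cadherin and catenin genes passed the level filter and lay far above the background range on every array. Cdh1 and Ctnnd1 had their highest signals on the Met-ENK array, where they were 1.24-fold and 1.30-fold above control. Cdh3 was also highest there, by a smaller margin, while Ctnnb1 was as high on the Met-ENK array as on the control array and Ctnna1 had 1 value on all 3 arrays. The β-END(1-9) array gave the lowest signal for 4 of the 5 genes. None of the 5 (0 genes) differed by 1.5-fold in any of the 3 comparisons.

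**Figure D1:**
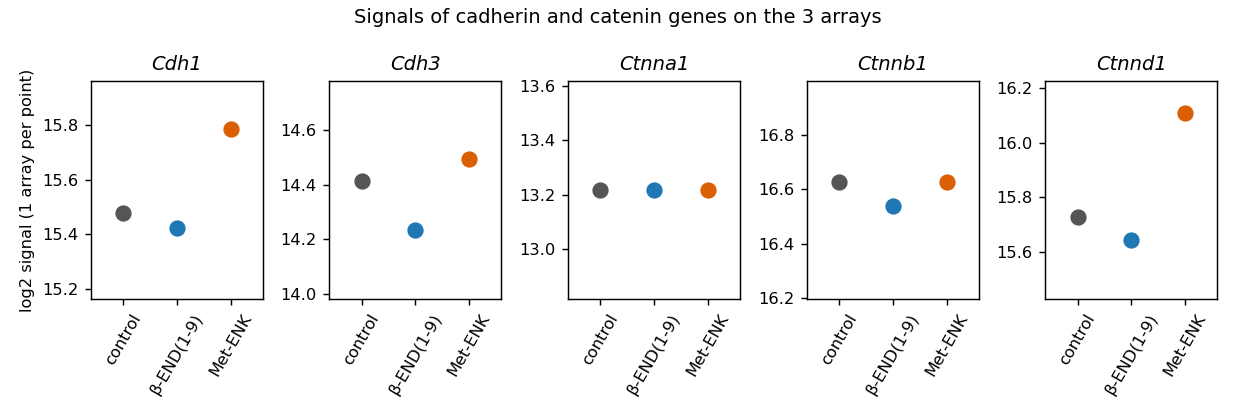
Deposited log2 signals of the 5 genes on the control, β-END(1-9) and Met-ENK arrays, 1 point per array, with a separate vertical axis per gene of the same height in log2 units. Cdh1 and Ctnnd1 stand highest on the Met-ENK array at 15.79 and 16.11, and Ctnna1 lies at 13.22 on all 3 arrays.

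The 2 cadherins were both present at high signal. E-cadherin, Cdh1, had a log2 signal of 15.48 in untreated cells, 15.42 after β-END(1-9) and 15.79 after Met-ENK. The Met-ENK array stood apart from the other two, which lay within 0.055 of each other. P-cadherin, Cdh3, had 14.41 in untreated cells, 14.23 after β-END(1-9) and 14.50 after Met-ENK. For Cdh3 it was the β-END(1-9) array that lay apart, 0.18 below control, against 0.081 between Met-ENK and control. Cdh3 and Cdh1 are direct neighbours in the GRCr8 assembly, with 0 gene records between them. In the deposited values the largest gap from control was above it for Cdh1 and below it for Cdh3. After a new quantile normalization, Cdh3 was 0.17 above control with Met-ENK and 0.082 below it with β-END(1-9). Its larger gap was then above control, as for Cdh1.

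Among the catenins, Ctnnd1 varied most. Its log2 signal was 15.73 in untreated cells, 15.64 after β-END(1-9) and 16.11 after Met-ENK. The range over the arrays, 0.46, was the widest of the 5 genes, against 0.36 for Cdh1 and 0.26 for Cdh3. Ctnnb1 had 16.63 in untreated cells, 16.54 after β-END(1-9) and 16.63 after Met-ENK. Its control and Met-ENK values were identical to the last deposited digit, and the β-END(1-9) array lay 0.088 below both. Ctnna1, the actin-binding partner, had the same deposited value, 13.22, on all 3 arrays. Identical values were frequent in the table: 21.6% of the genes that passed the filter had equal signals with Met-ENK and control. A difference of exactly 0 is therefore a feature of many genes here, and 889 other genes shared the flat pattern of Ctnna1.

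Ctnnd1 was the member with the largest difference, and its upstream sequence is shown to give the gene its genomic setting. The RefSeq promoter table of build GRCr8 matched 2 of the 5 genes, Ctnnb1 and Ctnnd1. The start listed for Ctnnb1 lies 16.6 kb inside its gene record, so that window is not shown. The 192 bases ahead of the Ctnnd1 gene record, chr3:90141248-90141439 on the minus strand, are written 5′ to 3′ with capitals at matches to TATAAA and to the CCAAT box, each searched on both strands; the matches do not overlap.
Ctnnd1: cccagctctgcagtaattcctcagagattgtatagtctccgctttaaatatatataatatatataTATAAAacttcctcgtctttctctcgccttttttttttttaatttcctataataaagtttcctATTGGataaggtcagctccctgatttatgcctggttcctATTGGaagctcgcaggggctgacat
The start listed for Ctnnd1 lies 58 bases inside its gene record, downstream of the last base shown. Counted from that start, the CCAAT matches, both in the reverse orientation, begin 122 and 83 bases before it, and the TATAAA match 185 bases before it. At least 1 CCAAT match was found in 27.7% of the 33469 promoter windows of that length, 2 or more in 6.35%, and TATAAA in 9.63%. The E-box bound by Snail-type repressors (CACCTG, searched on both strands) was not among these letters, and 12.7% of all windows held it. These are matches of letters only, and the arrays do not bear on binding.

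With Met-ENK against control, the 5 differences were 0.38 for Ctnnd1, 0.31 for Cdh1, 0.081 for Cdh3 and 0 for both Ctnnb1 and Ctnna1. Thus 3 were above 0 and 0 below it, with a median of 0.081, where the median of all genes passing the filter was 0. The count past 1.5-fold was 0 of 5, beside 6.72% of all filtered genes in either direction, of which 0.692% were higher and 6.02% lower. That background came from 52 higher and 453 lower genes, or 91 higher and 339 lower after a new quantile normalization. A difference at least as high as that of Ctnnd1 was found for 3.76% of the filtered genes, and as high as that of Cdh1 for 6.14%. Among the 817 genes whose mean signal was at or above that of Ctnna1, the lowest of the 5, these shares were 3.67% and 8.08%. After quantile normalization Cdh1 was at 0.45 and Ctnnd1 at 0.52, still below 1.5-fold.

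With β-END(1-9) against control, the differences were -0.18 for Cdh3, -0.088 for Ctnnb1, -0.083 for Ctnnd1, -0.055 for Cdh1 and 0 for Ctnna1. None was above 0, and the median was -0.083. The median of all filtered genes was also below 0, at -0.030, and 2.83% of them went past 1.5-fold (0.559% higher and 2.27% lower), against 0 of the 5. The 817 genes at or above the level of Ctnna1 had a median of -0.071, close to that of the 5, and 72.5% of them were below control. The sign of these small differences depended on the scaling. Quantile normalization put the median of the 5 genes at -0.0049 and loess scaling put it at 0.0068, and Cdh3 was the gene whose difference was below 0 under each scaling tried, from -0.22 to -0.082. This comparison and the preceding one share the control array.

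**Figure D2:**
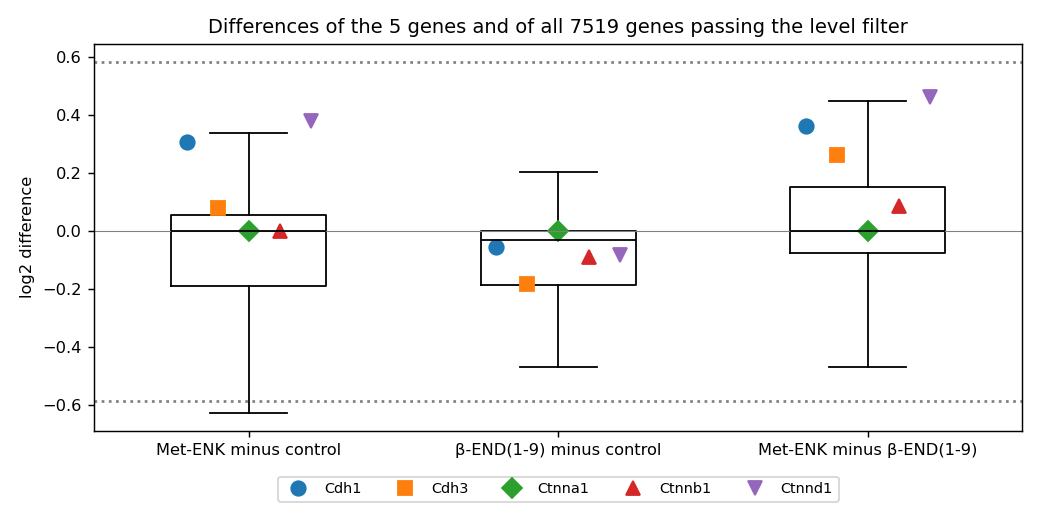
Log2 differences of the 5 genes (symbols) in the 3 comparisons; boxes span the middle 50% of the 7519 genes passing the level filter, the line is their median, whiskers run from percentile 5 to percentile 95, and dotted lines mark 1.5-fold. All symbols lie inside the dotted lines, and Ctnnd1 lies above the upper whisker for Met-ENK minus control (0.38 against 0.34) and for Met-ENK minus β-END(1-9) (0.46 against 0.45).

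The peptides were compared directly at the same dose and time. Signals were higher with Met-ENK than with β-END(1-9) for 4 of the 5 genes: Ctnnd1 by 0.46 (1.38-fold), Cdh1 by 0.36 (1.29-fold), Cdh3 by 0.26 (1.20-fold) and Ctnnb1 by 0.088 (1.06-fold). Ctnna1 differed by 0. The median was 0.26, against 0 for all filtered genes, and ranged from 0.21 to 0.28 over the scalings tried. None reached 1.5-fold, which 4.59% of all filtered genes did. The β-END(1-9) array alone was lowest for 4 of the 5, as it was for 32.9% of all filtered genes and 46.0% of the 817 genes at or above the level of Ctnna1. The Met-ENK array alone was highest for 3 of the 5, as it was for 27.4% and 42.6%. Of those 817 genes, 58.6% were higher with Met-ENK than with β-END(1-9), with a median of 0.045.

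Gene size moved with the differences on these arrays. Genomic span is the length of a gene's record from first to last base. With the genes split into 5 equal groups by span, 204 genes of the shortest group were at least 1.5-fold lower with Met-ENK than with control, against 23 in the longest group. Between the peptides, 15 genes of the shortest group and 55 of the longest were at least 1.5-fold higher with Met-ENK. The 5 cadherin and catenin genes span from 27.1 kb (Ctnnb1) to 133 kb (Ctnna1), with Cdh1 at 69.4 kb, Ctnnd1 at 51.2 kb and Cdh3 at 50.5 kb. Ctnnb1 belongs to the middle group by span, and the other genes to the groups above it. With the median of genes of similar span subtracted, Met-ENK minus β-END(1-9) had a median of 0.24 over the 5 genes, against 0.26 before. For Met-ENK minus control the median of genes of similar span was 0 for each of the 5, so the subtraction could not move their values. Ctnna1, the longest of the 5, had equal signals on all 3 arrays, as did 889 other filtered genes. With 0.078 subtracted, the median of genes of similar span, it lay below 0 between the peptides.

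**Figure D3:**
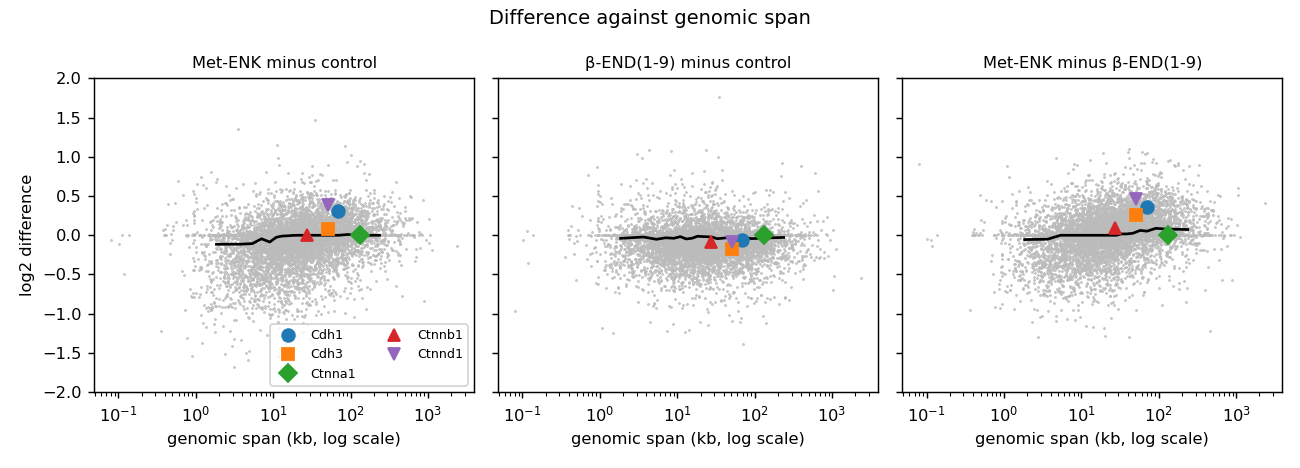
Log2 difference against genomic span (log axis, kb) for the 7519 genes passing the level filter (grey), with the median of 20 bins of equal gene number (line) and the 5 genes (symbols), for each of the 3 comparisons. Ctnnd1 (0.38) and Cdh1 (0.31) lie above the line for Met-ENK minus control, and Ctnna1, at 133 kb, lies at 0.

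The nearest patterns over the 3 arrays were sought among the filtered genes, as the distance between log2 signals after each gene's own mean was removed. With 3 arrays such likeness is only a description. Nearest to Ctnnd1 was Ptpn1, a tyrosine phosphatase known to act on the cadherin complex, at a distance of 0.0033, followed by the receptor gene Notch1 (0.0070) and Mvb12b (0.0081), a component of endosomal sorting. Nearest to Cdh1 were Tchp (0.0058), the amino acid transporter Slc38a2 (0.0060) and Cnot4 (0.0095). Nearest to Cdh3 were Polr1a (0.0047) and Nolc1 (0.0098), both of ribosomal RNA production, and Arhgap22 (0.010). Nearest to Ctnnb1 were Otud6b (0), Camsap1 (8.2e-05) and Nars1 (8.2e-05). The distance between Cdh1 and Ctnnd1 was 0.074, and 131 genes lay nearer to Ctnnd1 than Cdh1 did. Cdh1 and Cdh3 were 0.16 apart, with 865 genes nearer to Cdh1. Many genes thus had patterns as close as those of the junction partners to each other.

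Few other members of the cadherin family passed the level filter. N-cadherin, Cdh2, the cadherin gained by mesenchymal cells, had a log2 signal of 3.18 on all 3 arrays, within the background range. Of 15 measured further cadherins, 4 passed the filter. Besides Fat2 these were Fat1, Cdh13 and Celsr2, named here as the rest of the list and not by the rule for named genes. Fat1 had 16.27 in untreated cells, 16.10 after β-END(1-9) and 16.61 after Met-ENK, the same order as Cdh1. Cdh13 had 13.39, 13.47 and 13.60, and Celsr2 had 8.03 in untreated cells and 7.63 after either peptide. Fat2, a giant atypical cadherin, had 9.40 in untreated cells, 8.85 after β-END(1-9) and 9.48 after Met-ENK. It was the member of this list past 1.5-fold between the peptides (0.63), and was below it (0.54) with the span medians subtracted. Of 9 measured further catenins and relatives, 6 passed. Plakoglobin, Jup, a catenin also listed with the desmosome genes, had 17.18 in untreated cells and 17.12 after either peptide. Pkp3, a plakophilin of desmosomes, was lower than control with both peptides, at -0.59 after Met-ENK and -0.68 after β-END(1-9), and under 3 other settings its Met-ENK value came below 1.5-fold (-0.52 to -0.56). Its 2 peptide arrays were 0.092 apart.

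The partners that tie the cadherin complex to actin were mostly higher with Met-ENK than with β-END(1-9). Of 22 such genes, 18 were higher and 0 lower, with a median of 0.17. Of all filtered genes, 45.4% were higher and 33.0% lower in this comparison, with a median of 0. Against control, 14 were higher and 4 lower with Met-ENK (median 0.040), and 2 higher and 16 lower with β-END(1-9) (median -0.12). Over all filtered genes, 32.7% were higher and 45.7% lower with Met-ENK, and 18.8% higher and 56.1% lower with β-END(1-9). Vinculin, Vcl, which α-catenin recruits under tension, had 14.24 in untreated cells, 14.12 after β-END(1-9) and 14.67 after Met-ENK. That order is the same as for Cdh1 and Ctnnd1, with Met-ENK highest. Limd1, a LIM protein of junctions, had 10.51, 9.88 and 10.77 in that order, so its β-END(1-9) array was the low one, by -0.63 against control (-0.54 after quantile normalization). Tjp1, the ZO-1 scaffold, had 13.43, 13.12 and 13.77. Between the peptides Limd1 differed by 0.89 and Tjp1 by 0.65, or 0.57 with span medians subtracted. Lima1, which crosslinks actin, and the actinin gene Actn4 differed by 0.32 and 0.33. The scaffold gene Iqgap1 differed by 0.29 and Zyx, a LIM protein of actin filament ends, by 0.11. Actb, named here for its ceiling and not by the rule for named genes, lay at the highest value of the arrays, 19.93, on all 3 and cannot show a difference.

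The nectin system, a second set of adhesion receptors at the same junction, had 0 of 7 filtered genes past 1.5-fold in any comparison. The shares of all filtered genes past it were 6.72% (Met-ENK and control), 2.83% (β-END(1-9) and control) and 4.59% (between the peptides). Beside those shares, a count of 0 in a list this short says little about the nectin genes. Afdn, which couples nectins to actin, had 11.74 in untreated cells, 11.60 after β-END(1-9) and 11.90 after Met-ENK. Nectin2 had 10.99 in untreated cells and 10.80 after either peptide.

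Among 21 filtered genes for small GTPases, kinases and phosphatases of the junction, 0 went past 1.5-fold against control. The GTPase gene Rhoa ranged from 17.34 to 17.38 and Rac1 from 17.19 to 17.20. Rock2, a kinase of actomyosin contraction, had 13.22 in untreated cells, 13.01 after β-END(1-9) and 13.64 after Met-ENK, and the kinase Yes1 had 11.73, 11.40 and 12.00. Between the peptides they differed by 0.64 and 0.60. Both came below 1.5-fold under quantile normalization (0.58 and 0.55), loess scaling and subtraction of span medians.

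Genes for cadherin turnover had 12 of 19 higher and 2 lower with Met-ENK than with β-END(1-9), beside 45.4% and 33.0% of all filtered genes. Against control, 7 were higher and 7 lower with Met-ENK (median 0), and 0 higher and 16 lower with β-END(1-9) (median -0.14). Over all filtered genes, the shares against control were 32.7% higher and 45.7% lower with Met-ENK, and 18.8% and 56.1% with β-END(1-9). Adam10, the protease that cuts the outer part of E-cadherin, had 6.76 in untreated cells, 6.45 after β-END(1-9) and 7.04 after Met-ENK, all within the background range. Rab5a, of early endosomes, had 11.92, 11.64 and 12.32, a difference of 0.68 between the peptides. Psenen, a subunit of γ-secretase, had 11.10, 10.42 and 9.73, so it was lowest with Met-ENK, opposite to the cadherins. It spans 1.20 kb and so lies among the shortest genes. Cbll1, the ubiquitin ligase known as Hakai, was 0.11 higher with Met-ENK than on either other array.

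Regulators of cadherin transcription had 14 of 22 measured genes above the filter, with 3 higher and 10 lower with Met-ENK than with control, beside 32.7% and 45.7% of all filtered genes. Snai2, the Slug repressor, had 14.66 in untreated cells, 14.49 after β-END(1-9) and 14.67 after Met-ENK. Snai1 had 3.92 on all 3 arrays, within the background range. Grhl2, an activator of Cdh1, had 11.67, 11.57 and 11.85. Tcf4, a basic helix-loop-helix factor that binds E-boxes, had 8.17, 8.10 and 8.72. It was 0.55 higher with Met-ENK than with control, and 0.64 after quantile normalization, which is past 1.5-fold. Klf4, an epithelial zinc finger factor, was lower than control at -0.49 after Met-ENK and -0.59 after β-END(1-9), the latter -0.50 after quantile normalization.

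The genes that govern β-catenin protein had 0 of 17 filtered members past 1.5-fold in any comparison. Of all filtered genes, 6.72% were past it for Met-ENK against control, 2.83% for β-END(1-9) against control and 4.59% between the peptides. The scaffold Apc had 12.37 in untreated cells, 12.04 after β-END(1-9) and 12.32 after Met-ENK. Axin1, another scaffold, had 9.47, 9.26 and 9.62, and the kinases Gsk3b (15.55, 15.52 and 15.84) and Csnk1a1 (14.71, 14.54 and 14.92) were highest with Met-ENK. Nuclear partners of β-catenin had 0 of 9 past 1.5-fold. Of the target genes of β-catenin and TCF, 10 of 20 measured passed the filter and 0 went past 1.5-fold. Beside the shares of all filtered genes, counts of 0 in lists this short say little about the genes in them. Axin2, the target most widely used as a readout of Wnt signalling, had 8.47 on all 3 arrays. Myc was lower than control at -0.15 after Met-ENK and -0.29 after β-END(1-9), and the cyclin gene Ccnd1 by -0.26 and -0.21.

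**Figure D4:**
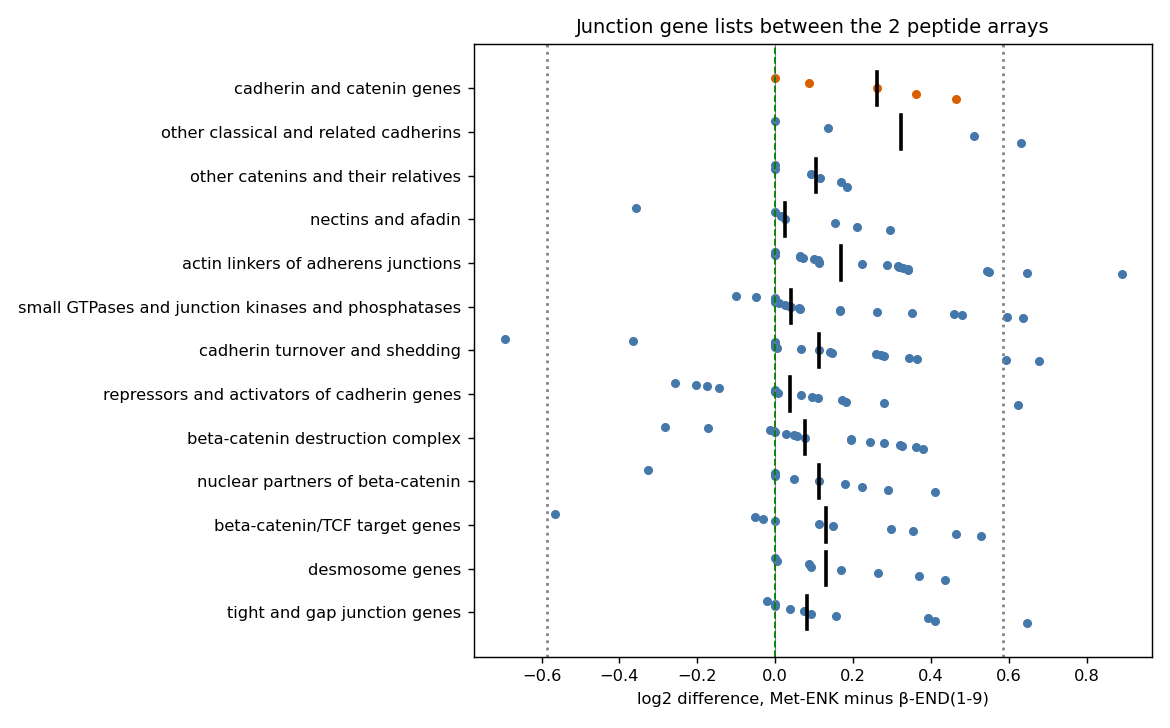
Log2 difference between the Met-ENK and β-END(1-9) arrays for each gene passing the level filter (points) in the cadherin and catenin genes and 12 related lists, with the list median (bar), the median of all 7519 filtered genes (dashed line, 0) and 1.5-fold (dotted lines). The median of the 5 genes is 0.26 and that of the actin linkers 0.17. Every point of these 2 lists lies at or above 0, as does every point of the other cadherins, the other catenins and the desmosome genes.

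Over the 12 related lists together, 141 genes other than the 5 passed the filter. Between the peptides, 98 were higher with Met-ENK and 18 lower, beside 45.4% and 33.0% of all filtered genes. Their median was 0.10, or 0.074 with span medians subtracted. Past 1.5-fold were 8 higher genes, or 5.67%, and 1 lower gene, or 0.709%, beside 1.89% and 2.70% of all filtered genes. Subtracting the span medians took 6 of the 8 below 1.5-fold, and Limd1 and Rab5a were the 2 that stayed past it under every scaling tried. Between the peptides, the median was 0.13 over 8 desmosome genes and 0.083 over 10 tight and gap junction genes. Both were below the 0.26 of the cadherins and catenins, while the 4 further cadherins that passed gave a larger median, 0.32. Whether these medians differ was not tested, since 1 array per group allows no test. Marveld3, a tight junction protein, was the gene past 1.5-fold higher with Met-ENK than with control (0.59), and was below it with each array centred on its median (0.56).

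Markers of other cell types were mostly at background. On every array, 9 of 12 fibroblast markers, 5 of 6 of melanocytes, 10 of 10 of endothelium and 9 of 11 of immune cells lay within the background range. The summed log2 signal of the fibroblast markers ran from 70.3 to 71.2 over the arrays, that of melanocytes from 30.5 to 31.2, of endothelium from 43.0 to 45.1 and of immune cells from 53.4 to 54.3. Most signals in these sums lay within the background range, so the sums cannot show whether the makeup of the cultures differed. The sum over 9 keratinocyte markers ran from 122.5 to 123.4. Vim, an intermediate filament gene of mesenchymal and cultured cells, was the fibroblast marker past 1.5-fold, at 14.57 in untreated cells, 14.24 after β-END(1-9) and 13.90 after Met-ENK. Its lowest array was thus the one where Cdh1 was highest. Vim spans 8.49 kb, and its Met-ENK difference from control, -0.67, came below 1.5-fold (-0.58) with span medians subtracted. The part of these markers in the cadherin values was not tested.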

How the data were processed

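RNA of 3 FRSK cultures was hybridised to 3 Affymetrix arrays, 1 per condition. The deposited table holds log2 signals per probe set, made with RMA in the Affymetrix Expression Console and the Transcriptome Analysis Console, per the submitters' processing notes; no source used here states versions or the genome build. The 1646 control probe sets were set aside. Names came from the platform annotation, which gave 1 symbol for 15049 of 23188 clusters and none for 8139. Where a gene had more than 1 probe set (10 genes), the brightest on average stood for it. Spans and promoter sequences came from RefSeq, assembly GRCr8.

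Differences of log2 signals were taken with pandas 2.3.3. The subtraction was checked on simulated data with known large changes, which tests the arithmetic only and not the precision of these arrays. Alternatives were no filter, median centring, quantile normalization, loess (statsmodels 0.14.6, fraction 0.3), subtraction of the median of 20 span bins, a 2-fold limit and averaged probe sets. Genes named were the 5 members, a fixed set of junction genes, up to 5 per list past 1.5-fold, and the 3 nearest in pattern to each member, except for Ctnna1, where 889 genes tied. Members and lists were chosen with earlier results of these data known. Zeb1, Tcf7l2 and Dsp are not analysed here.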

Additional observations from a re-analysis of the deposited data

How the results depend on the processing

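The count of cadherin and catenin genes past 1.5-fold was 0 in each comparison under all alternatives run for it. The medians of the 5 genes moved by less than 0.1 in log2, which is not small beside medians of this size. For Met-ENK against control the median went from 0.081 to 0.17 under quantile normalization. The 2-fold limit could not raise a count of 0, and averaging probe sets could not move genes with 1 probe set each. The median for β-END(1-9) against control is so near 0 that its sign turned under loess scaling, to 0.0068. The background counts depended on filter and limit. Against main counts of 505 (Met-ENK and control), 213 (β-END(1-9) and control) and 345 (between the peptides), no level filter gave 1081, 693 and 836, a 2-fold limit gave 61, 21 and 22, and the 817 genes at or above the level of the lowest member, a choice made after seeing the data, gave 59, 0 and 28. Of 615 values of named genes under alternatives, 24 crossed 1.5-fold and 0 reversed a difference past it. These values include those from averaged probe sets, which could change only the 10 genes with more than 1 probe set. No paired analysis was possible because each condition has 1 array. Signals near the background range, such as those of Adam10, Cdh2 and Snai1, cannot be separated from background by level.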
